A study of Mus musculus with 6 samples.

Results

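The genes described here are the translation initiation, elongation and release factors of the mouse, with the enzymes that modify them, measured in activated and dormant blastocysts. They were chosen by gene symbol: probesets with 1 symbol that begins with Eif1 to Eif6, Eef1 or Eef2, or that is Etf1 or Gspt1, leaving out pseudogenes and the multicopy Eif1ad genes. The rule found 65 genes on 70 probesets, of 22180 genes with a name of their own on the array, and used no measured value. A blastocyst is the embryo just before implantation, and in diapause it stops growing and stays viable. The study asked how blastocysts made dormant by the microRNA let-7 compare with dormant blastocysts from the uterus and with activated ones. RNA of 10 pooled blastocysts went on each of 6 Mouse Gene ST arrays, 2 in each of 3 groups.

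All 3 groups came from let7g-transgenic mice. In DOX-7g, dormancy was brought about in culture by let-7 induction with DOX, the usual short form of doxycycline, and blastocysts were taken on day 7. Dor-7g held blastocysts dormant in vivo, also taken on day 7. D4-act-7g held activated blastocysts of day 4. The driver of the transgene was not given. Day, culture, DOX exposure and let-7 induction cannot be told apart between DOX-7g and D4-act-7g. The same holds for culture, DOX exposure and let-7 induction between DOX-7g and Dor-7g, and for day and dormancy between Dor-7g and D4-act-7g. Whether replicate arrays stand for separate mice or pools is not stated, so p-values measure the spread between arrays, which may be technical. RNA was released by heating whole embryos in water, and in such bulk samples fewer cells of a type and less RNA per cell cannot be told apart.

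Protein synthesis starts when the eIF2 complex brings the initiator tRNA to the small ribosomal subunit, eIF1, eIF1A and eIF3 hold that subunit ready, and the eIF4 group recruits it to the capped mRNA. Elongation factors then deliver aminoacyl-tRNAs and move the ribosome along, and release factors end the chain at a stop codon. Growth signals through mTOR free the cap-binding protein eIF4E from its repressors, stress kinases block eIF2, and low protein synthesis is a known feature of the diapaused mouse blastocyst.

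Of the 65 genes, 58 passed a filter on dim probesets (a signal no lower than the array's median on at least 2 of the 6 arrays), and 53 of these met it on every array. The 7 others were the kinase genes Eif2ak1 and Eif2ak2, and Eif4a3, Eif4e1b, Eif4g2, Eif5a2 and Eif2c5, the last a noncoding locus by the RefSeq gene table. Eif1, Eif2s1, Eif2s3x and Eif4g1 were not analysed here. Values are log2 signals as deposited, a change is a difference of 2 group means on that scale with limma's moderated SE (n = 2 arrays a group), and a gene passed the test at an adjusted p at or under 0.05 by limma with Benjamini-Hochberg adjustment over 14020 genes. Since probes differ in brightness, levels are compared between groups for 1 gene at a time and never between genes.

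Among the arrays, replicate 1 of Dor-7g stood apart: its median signal was 4.87, against 4.62 to 4.67 on the others, and it correlated with them at r = 0.899 to 0.919 over all probesets. Marker genes of the blastocyst's own lineages were at or above the array medians on every array for 5 of 7 trophectoderm genes, 3 of 5 inner cell mass genes and 4 of 5 primitive endoderm genes, while Sox2 and Esrrb lay below on all. Of other cell types, 7 of 9 uterine epithelium, 5 of 7 measured uterine stroma, 1 of 6 measured blood and 2 of 4 oocyte markers were at or above the median on every array. The mean of the blood markers was 7.41 and 7.06 on the DOX-7g arrays, 4.72 and 5.19 on the Dor-7g arrays and 4.27 and 4.43 on the D4-act-7g arrays. It was thus highest in DOX-7g, with S100a8 at 10.91 and 10.12 there, while Ptprc, carried by all white blood cells, was below the median on every array. The mean of the uterine stroma markers was highest in Dor-7g, at 5.56 and 6.05, against 5.15 and 5.24 in DOX-7g and 5.19 and 5.18 in D4-act-7g. Dcn, a matrix protein gene of stroma, read 9.29 on Dor-7g replicate 2 and 3.67 to 4.22 on the other 5 arrays. Every other measured stroma marker on Dor-7g replicate 2 lay within the range of, or level with, arrays outside Dor-7g, so the mean of 6.05 rested on Dcn. On replicate 1, with the highest array median, all of them but Hand2 lay above the arrays outside Dor-7g. Uterine epithelium markers averaged 5.64 and 5.79 in DOX-7g, 6.01 and 5.72 in Dor-7g and 5.50 on both D4-act-7g arrays. The mean of the oocyte markers was lower on all 4 dormant arrays. It was 5.18 and 5.04 in DOX-7g and 5.07 and 5.29 in Dor-7g, against 5.76 and 5.55 in D4-act-7g. Zp3, a gene of the egg coat, read 6.43 and 6.59 in DOX-7g, 5.69 and 6.37 in Dor-7g and 8.15 and 7.35 in D4-act-7g. The others, Zp2, Gdf9 and Bmp15, overlapped between Dor-7g and D4-act-7g. Against D4-act-7g, both DOX-7g arrays were lower for Gdf9 and Bmp15 and overlapped for Zp2. The part of these markers in the results was not tested.

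In Dor-7g blastocysts most translation factors stood below D4-act-7g, though none by itself passed the test. The median change of the 58 genes was -0.37, against 0.06 over all 14020 genes. Both Dor-7g arrays lay below both D4-act-7g arrays for 35 factors (60.3%), against 21.5% of all genes, and above both for 2 (3.45%), against 24.3% of all genes. In limma, 0 of 58 passed the adjusted threshold, where 0.984% of all genes did. At an unadjusted p under 0.05, 17 factors were lower and 2 higher, or 19 in all (32.8%), against 14.3% of all genes in either direction, 8.81% lower and 5.44% higher.

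Both Dor-7g arrays showed the shift. Against the D4-act-7g mean, the median factor stood at -0.34 on replicate 1 and at -0.30 on replicate 2, while the median of all genes stood at 0.12 and -0.03. With replicate 1 left out, 44 factors (75.9%) lay below both D4-act-7g arrays on the remaining Dor-7g array, against 42.0% of all genes, and with replicate 2 left out 38 (65.5%), against 32.8% of all genes. Centring each array on its median moved the median of all genes to -0.07 and that of the factors to -0.50, a gap of -0.44 on either scaling, and a further quantile normalization left a gap of -0.33.

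In DOX-7g blastocysts the factors as a group stood close to D4-act-7g. Their median change was -0.12, against -0.05 over all genes. No overlap of arrays was seen for 22 factors lower (37.9%), against 30.5% of all genes, and for 11 higher (19.0%), against 19.2% of all genes. The 1 factor that passed the test was Eif4a3l1, which rose (1.72% of the factors, against 0.956% of all genes in either direction and 0.706% that rose). At an unadjusted p under 0.05 there were 7 factors (12.1%, against 11.0% of all genes), 3 of them higher (5.17%, against 4.61%).

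Set directly against each other, DOX-7g stood above Dor-7g for most factors. The median change of DOX-7g versus Dor-7g was 0.26, against -0.11 over all genes. Both DOX-7g arrays lay above both Dor-7g arrays for 30 factors (51.7%), against 15.0% of all genes, and below both for 8 (13.8%), against 26.7% of all genes. With Dor-7g replicate 1 left out these were 32 higher (55.2%), against 33.6% of all genes, and 14 lower (24.1%), against 38.7%. The median without that array was 0.16, against -0.02 over all genes, a gap of 0.18 where the main fit had 0.36. Both factors that passed the test, Eif4a3l1 and Eef2, rose (3.45% of the factors, against 1.16% of all genes in either direction and 1.04% that rose). At an unadjusted p under 0.05, 11 factors differed (19.0%, against 11.6% of all genes), 10 of them higher (17.2%, against 6.06%). The comparisons share arrays with one another, so their values are given side by side and are no independent support of each other.

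**Figure D1:**
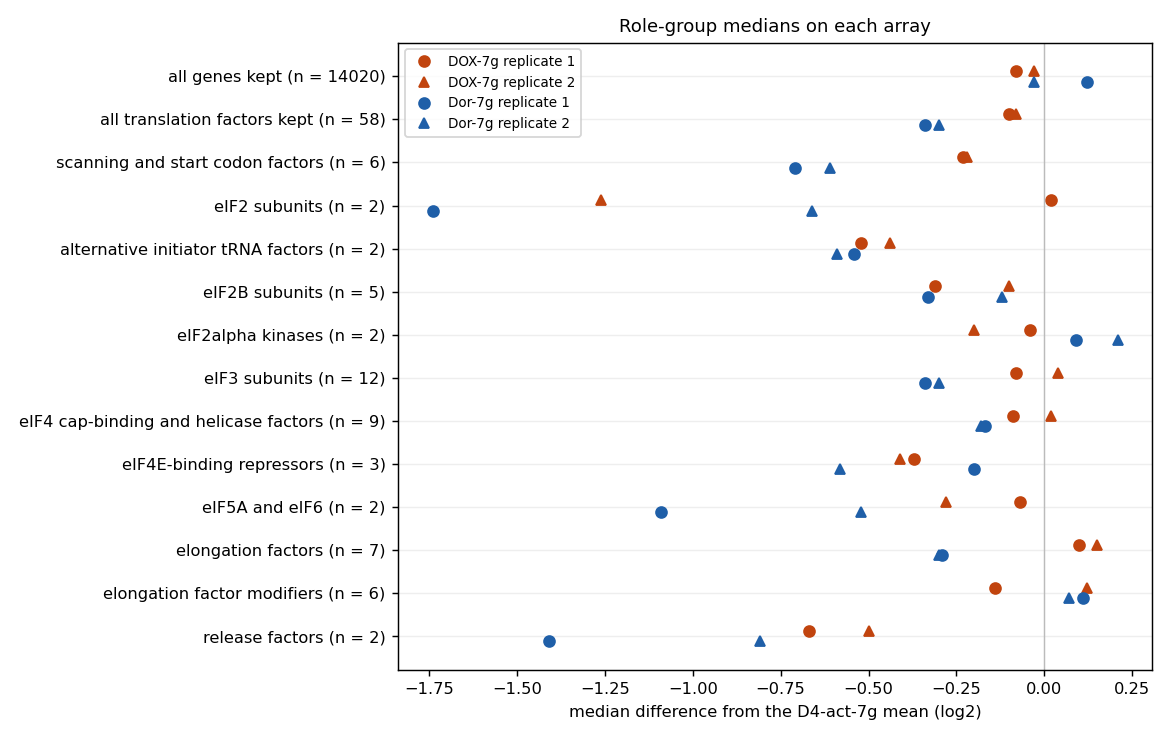
Median difference from the D4-act-7g mean (log2, horizontal axis) on each DOX-7g and Dor-7g array for all genes, all 58 factors and each role (vertical axis, n = genes). For the 58 factors the Dor-7g points sit at -0.34 and -0.30 and the DOX-7g points at -0.10 and -0.08.

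By role, the groups did not move alike. Of 12 eIF3 subunits, 11 had a change below 0 in Dor-7g versus D4-act-7g (median -0.30, range -0.70 to 0.11), and in DOX-7g versus D4-act-7g the median was 0.01 (range -0.26 to 0.23). Elongation factors, with Eef1e1 of the tRNA synthetase complex counted among them, had medians of -0.37 in Dor-7g and 0.10 in DOX-7g, both against D4-act-7g. Scanning factors stood lower in both, at -0.76 and -0.31, and release factors at -1.11 and -0.58. The 2 eIF2alpha kinases that passed the filter had a median of 0.15 in Dor-7g and -0.12 in DOX-7g. With another quantile normalization or with centred arrays every role median kept its sign, except those of eIF3 in DOX-7g and of the elongation factor modifiers in Dor-7g, both near 0.

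**Figure D2:**
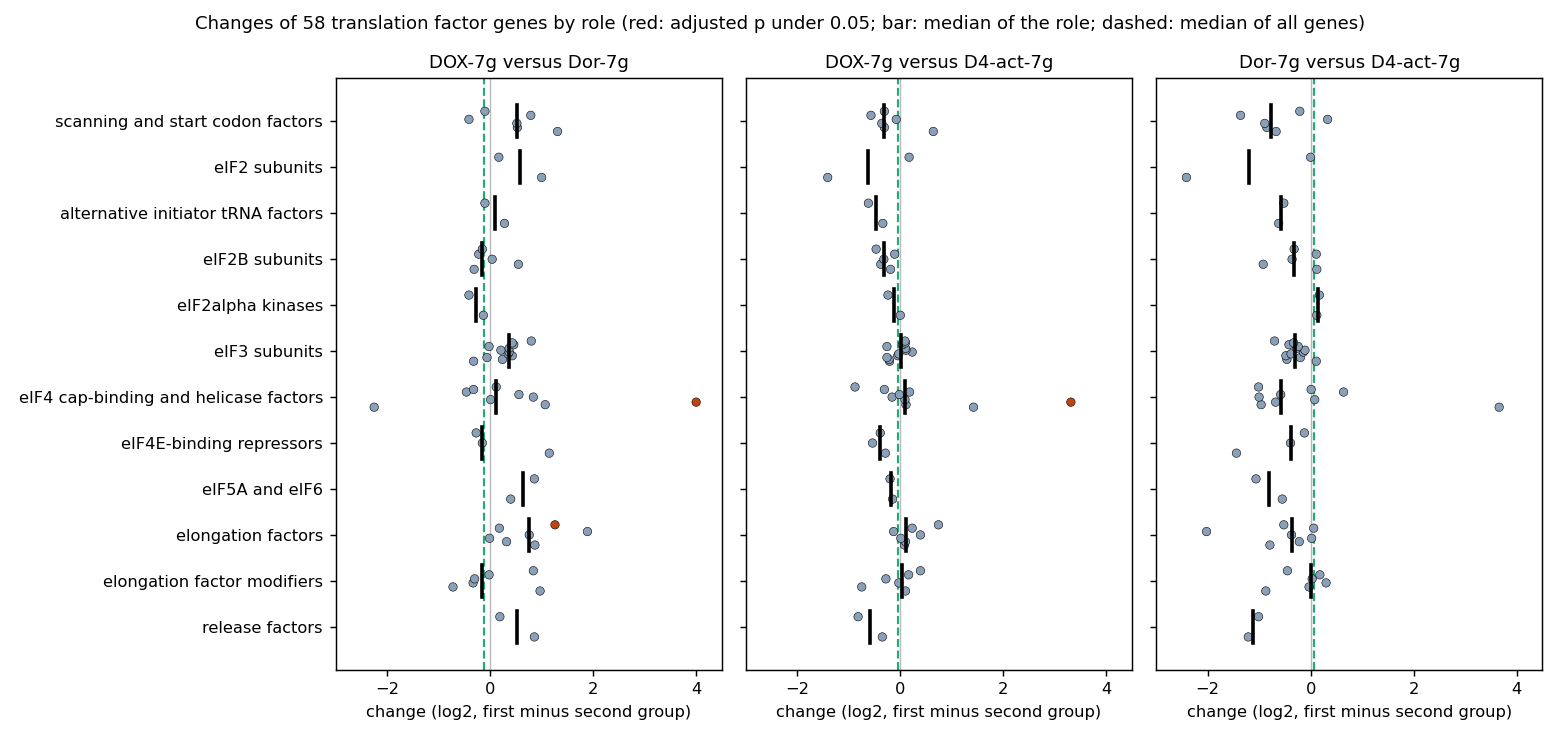
Change of each of 58 factors (points, log2, horizontal axis) by role (vertical axis) in the 3 comparisons, with the role's median as a black bar, the median of all genes as a dashed line and genes past adjusted p 0.05 in red. The red points are Eif4a3l1 at 4.00 and Eef2 at 1.26 in DOX-7g versus Dor-7g, and Eif4a3l1 at 3.31 in DOX-7g versus D4-act-7g.

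Promoter sequence is shown for 4 genes that mark different patterns below: Eif4a3l1 and Eef2, which passed the test, Eif5, low in Dor-7g on both arrays, and Eef1b2, level on all arrays. Each stretch, from RefSeq (GRCm38.p6), runs from 100 bases before the start of transcription to 20 bases after it, read on the gene's strand. Capitals mark a TATA-type motif in Eef2 and an ETS-type motif in Eef1b2, both spelled out after the sequences.
Eif4a3l1, chr6:136327439-136327558, + strand: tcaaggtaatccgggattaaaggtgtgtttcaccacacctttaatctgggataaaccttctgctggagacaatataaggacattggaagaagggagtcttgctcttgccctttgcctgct
Eef2, chr10:81176531-81176650, + strand: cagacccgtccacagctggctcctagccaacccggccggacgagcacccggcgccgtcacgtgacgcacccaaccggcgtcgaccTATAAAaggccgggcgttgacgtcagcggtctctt
Eif5, chr12:111538001-111538120, + strand: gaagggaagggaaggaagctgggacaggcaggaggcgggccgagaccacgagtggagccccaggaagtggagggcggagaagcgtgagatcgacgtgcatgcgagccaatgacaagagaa
Eef1b2, chr1:63176731-63176850, + strand: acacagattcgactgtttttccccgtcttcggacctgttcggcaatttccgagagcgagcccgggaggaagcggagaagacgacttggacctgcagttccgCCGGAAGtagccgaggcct

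Promoter windows were found for 50 of the 65 genes, 65 windows in all, each from 250 bases before to 50 after a start. The ETS-type motif CCGGAAG, searched on both strands, was in 20 of them (30.8%), against 14.6% of windows of genes that passed the filter and 8.86% of all windows. The TATA-type motif TATAAA, also searched on both strands, was in 4 (6.15%), against 8.57% and 13.6%, those of Eef2, Eif2s3y, Eif3b and Eif3f. No printed stretch held both motifs, and a match describes the letters only.

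Scanning and start codon factors place the small subunit on the start codon. Eif5 encodes the protein that triggers GTP hydrolysis on eIF2 there. Its signal was 9.10 and 9.29 on the DOX-7g arrays, 8.71 and 8.09 on the Dor-7g arrays and 9.73 and 9.80 on the D4-act-7g arrays. All 3 groups stood apart, with Dor-7g lowest. Its change was -1.36 ± 0.25 in Dor-7g versus D4-act-7g (SE, adjusted p = 0.0885, limma) and -0.57 ± 0.25 in DOX-7g versus D4-act-7g (SE, adjusted p = 0.496, limma). Without Dor-7g replicate 1 it was -1.67 and passed (adjusted p = 0.0324, limma), without Dor-7g replicate 2 -1.05 (adjusted p = 0.0365), and with centred arrays -1.49 (adjusted p = 0.043), while over all 15 alternatives the adjusted p lay between 0.0324 and 0.447.

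Eif1a and Eif1ax encode forms of eIF1A, which keeps the scanning complex open, the second from the X chromosome. Eif1a read 8.29 and 8.76 in DOX-7g and 7.07 and 7.36 in Dor-7g, and averaged 7.88 ± 0.16 in D4-act-7g (SD, n = 2). The groups did not overlap, DOX-7g being above and Dor-7g below D4-act-7g. The change in DOX-7g versus Dor-7g was 1.31 ± 0.24 (SE, adjusted p = 0.0985, limma). Eif1ax, at 10.07 and 9.54 in DOX-7g, 9.09 and 9.47 in Dor-7g and 10.31 and 10.02 in D4-act-7g, was lower by 0.89 on the log2 scale in Dor-7g than in D4-act-7g, a change of -0.89 ± 0.26 (SE, adjusted p = 0.22, limma). It lacked the higher level in DOX-7g that Eif1a had: 1 of its 2 DOX-7g arrays lay below both D4-act-7g arrays.

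Eif1ad, an eIF1A-like gene, stood at 9.99 and 10.47 in DOX-7g, 9.93 and 9.47 in Dor-7g and 10.59 and 10.51 in D4-act-7g, below D4-act-7g on all 4 dormant arrays. Eif1b, a close relative of Eif1, had a Dor-7g mean of 11.18 ± 0.49 and a D4-act-7g mean of 10.85 ± 0.13 (SD, n = 2 each), with overlapping arrays. Eif5b, which joins the large subunit, read 5.11 and 5.22 in DOX-7g, 5.40 and 5.13 in Dor-7g and 5.57 and 5.38 in D4-act-7g, and its changes of -0.31 and -0.21 against D4-act-7g did not pass.

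Of the eIF2 subunits, Eif2s2 encodes the beta subunit. It read 9.17 and 7.31 in DOX-7g, 6.02 and 8.46 in Dor-7g and 9.65 and 9.64 in D4-act-7g. All 4 dormant arrays lay below both activated ones, but replicate 1 minus replicate 2 was 1.86 in DOX-7g and -2.44 in Dor-7g. Its change of -2.41 ± 0.91 in Dor-7g versus D4-act-7g (SE, adjusted p = 0.32, limma) did not pass. Eif2s3y, the Y-linked gamma subunit gene, ran from 4.96 to 5.67 over all 6 arrays with overlapping groups, and pools of embryos can differ in their share of males.

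Eif2a and Eif2d encode factors that can bring the initiator tRNA to the ribosome without eIF2. Eif2a read 5.59 and 5.56 in DOX-7g, 5.25 and 5.35 in Dor-7g and 5.84 and 5.99 in D4-act-7g. Eif2d read 6.71 and 6.89 in DOX-7g, 7.00 and 6.80 in Dor-7g and 7.37 and 7.46 in D4-act-7g. For both genes all 4 dormant arrays lay below both activated arrays, and for Eif2d the DOX-7g and Dor-7g arrays overlapped. Against D4-act-7g, the Dor-7g changes were -0.62 ± 0.17 for Eif2a and -0.52 ± 0.18 for Eif2d (SE, adjusted p = 0.197 and 0.282, limma).

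The eIF2B complex recharges eIF2 with GTP. Among its 5 subunit genes, Eif2b2 stood out with 6.32 and 5.97 in DOX-7g, 5.43 and 5.78 in Dor-7g and 6.34 and 6.71 in D4-act-7g. Dor-7g was lowest and did not overlap the other groups, and its change against D4-act-7g was -0.92 ± 0.24 (SE, adjusted p = 0.181, limma). Eif2b5, the catalytic subunit, read 6.69 and 6.64 in DOX-7g, 6.61 and 7.01 in Dor-7g and 7.26 and 7.01 in D4-act-7g, with changes of -0.47 and -0.32 against D4-act-7g. Changes against D4-act-7g were -0.32 in DOX-7g and -0.36 in Dor-7g for Eif2b3, -0.19 and 0.12 for Eif2b1, and -0.11 and 0.11 for Eif2b4, none past the test, and with centred arrays that of Eif2b1 in Dor-7g was -0.01.

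The eIF2alpha kinases shut initiation down under stress. Eif2ak4 encodes GCN2, the sensor of amino acid shortage, and read 5.88 and 5.53 in DOX-7g, 5.74 and 6.50 in Dor-7g and 6.02 and 5.88 in D4-act-7g. Eif2ak3 encodes PERK, the sensor of the endoplasmic reticulum, and read 4.66 and 4.70 in DOX-7g, 5.07 and 4.55 in Dor-7g and 4.60 and 4.76 in D4-act-7g, close to the array medians. Groups overlapped for both. Eif2ak1 (3.77 to 3.98) and Eif2ak2 (2.79 to 3.01) lay below the median on every array, so that a difference in them would be hard to see here.

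Subunits of eIF3, the scaffold of the small subunit, lay within a narrow range. Arrays did not overlap for 9 of the 12 genes in Dor-7g versus D4-act-7g, all lower (75.0%, against 21.5% of all genes). Eif3m had the largest change there, with 11.57 on both DOX-7g arrays, 10.52 and 11.03 in Dor-7g and 11.41 and 11.53 in D4-act-7g. Dor-7g lay below both other groups, with a change of -0.70 ± 0.22 against D4-act-7g (SE, adjusted p = 0.242, limma) and of 0.80 ± 0.22 in DOX-7g versus Dor-7g (SE, adjusted p = 0.274, limma).

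The next in size in Dor-7g was Eif3d, a subunit that can itself bind mRNA caps. Its brighter probeset read 7.63 and 7.83 in DOX-7g, 7.32 and 7.28 in Dor-7g and 7.82 and 7.75 in D4-act-7g, a change of -0.48 ± 0.17 in Dor-7g versus D4-act-7g (SE, adjusted p = 0.294, limma), and its other probeset was dim on all arrays. Eif3b, Eif3k and Eif3e had changes of -0.46, -0.42 and -0.38 in Dor-7g versus D4-act-7g and of -0.22, 0.04 and -0.03 in DOX-7g versus D4-act-7g. For Eif3f, at 11.98 and 11.97 in DOX-7g, 11.50 and 11.70 in Dor-7g and 11.75 and 11.74 in D4-act-7g, the 3 groups did not overlap. Against D4-act-7g its changes were 0.23 in DOX-7g and -0.14 in Dor-7g, the latter -0.00 with a further quantile normalization.

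Eif3a, the largest subunit, was the 1 eIF3 gene with a change above 0 in Dor-7g versus D4-act-7g. It read 4.55 and 4.82 in DOX-7g, 4.92 and 5.10 in Dor-7g and 4.85 and 4.96 in D4-act-7g, near the array medians, and Dor-7g and D4-act-7g overlapped. Its change of 0.11 became -0.01 with a further quantile normalization and -0.02 with centred arrays. Eif3c had changes of -0.26 in DOX-7g and -0.20 in Dor-7g against D4-act-7g. Eif3j1, a loosely bound subunit, read 5.67 and 5.34 in DOX-7g, 5.69 and 5.36 in Dor-7g and 5.93 and 5.59 in D4-act-7g, with overlapping groups. Eif3h, Eif3i and Eif3l, the remaining subunits, had changes of -0.11, -0.27 and -0.33 in Dor-7g and of 0.11, 0.10 and 0.10 in DOX-7g, both against D4-act-7g. Eif3l read 4.58 and 4.60 in Dor-7g, below the medians of those arrays, so its change is hard to size. By limma 0 of the 12 passed the test in any comparison, where 0.956% to 1.16% of all genes did. At an unadjusted p under 0.05 there were 3 of 12 in Dor-7g versus D4-act-7g (against 14.3% of all genes), 2 in DOX-7g versus Dor-7g (against 11.6%) and 0 in DOX-7g versus D4-act-7g (against 11.0%).

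Eif4a3l1 had the largest change of all 58 factors in both comparisons with DOX-7g. It is named as a relative of Eif4a3, the RNA helicase of the exon junction complex. Its signal was 11.50 and 12.34 on the DOX-7g arrays, 8.43 and 7.41 on the Dor-7g arrays and 8.65 and 8.56 on the D4-act-7g arrays. Both DOX-7g arrays stood far above the other 4, and Dor-7g lay below D4-act-7g. It rose in DOX-7g versus Dor-7g by 4.00 ± 0.42 (SE, 16-fold, adjusted p = 0.0152, limma) and in DOX-7g versus D4-act-7g by 3.31 ± 0.42 (SE, 9.94-fold, adjusted p = 0.0359, limma).

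Leaving out an array of the group not compared gives the same fit as fitting only the compared groups. The 15 alternatives are thus not all separate fits. Of these 15, Eif4a3l1 passed in 11 against Dor-7g and in 9 against D4-act-7g, with changes of 3.49 to 4.51 and of 2.89 to 3.73. It did not pass against D4-act-7g with a further quantile normalization (adjusted p = 0.0731) or with a replicate block (0.083), without either DOX-7g array (0.0838 without replicate 1 and 0.172 without replicate 2) or without either D4-act-7g array (0.222 and 0.228), nor against Dor-7g without DOX-7g replicate 2 (0.0859), without either D4-act-7g array or with only those groups fitted (0.0576 each). Probes of related genes can take up each other's RNA, so which copy was measured is uncertain. Eif4a3 itself read 4.14 and 3.58 in DOX-7g, 4.39 and 4.63 in Dor-7g and 4.63 and 4.34 in D4-act-7g. It lay below the median on every array, so that no direction is read from it. The blood markers were also highest in DOX-7g, and their part in the rise of Eif4a3l1 was not tested.

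Eif4a1 and Eif4a2 encode the helicases that unwind mRNA for initiation, and for both the probesets disagreed. The brighter Eif4a1 probeset (17264865) read 8.75 and 7.79 in DOX-7g, 11.38 and 9.66 in Dor-7g and 7.27 and 6.44 in D4-act-7g, with Dor-7g highest and no overlap. Its change in Dor-7g versus D4-act-7g was 3.66 ± 0.65 (SE, adjusted p = 0.0834, limma). The other Eif4a1 probeset (17264844) read 5.09 and 4.93 in DOX-7g, 4.30 and 5.44 in Dor-7g and 5.34 and 5.10 in D4-act-7g, a difference of -0.34 in Dor-7g versus D4-act-7g with overlapping arrays. With the mean of both probesets the Eif4a1 change was 1.66 (adjusted p = 0.0776, limma), so its size depends on the probeset.

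For Eif4a2, probeset 17324378 read 6.36 and 6.03 in DOX-7g, 4.47 and 5.77 in Dor-7g and 5.97 and 6.19 in D4-act-7g. Probeset 17324396 read 5.51 and 5.54 in DOX-7g, 5.56 and 5.38 in Dor-7g and 4.99 and 4.69 in D4-act-7g. The first was lower in Dor-7g than in D4-act-7g (difference of -0.96) and the second higher (difference of 0.63), and a further probeset was dim on all arrays. No direction for Eif4a2 can be read from these.

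**Figure D3:**
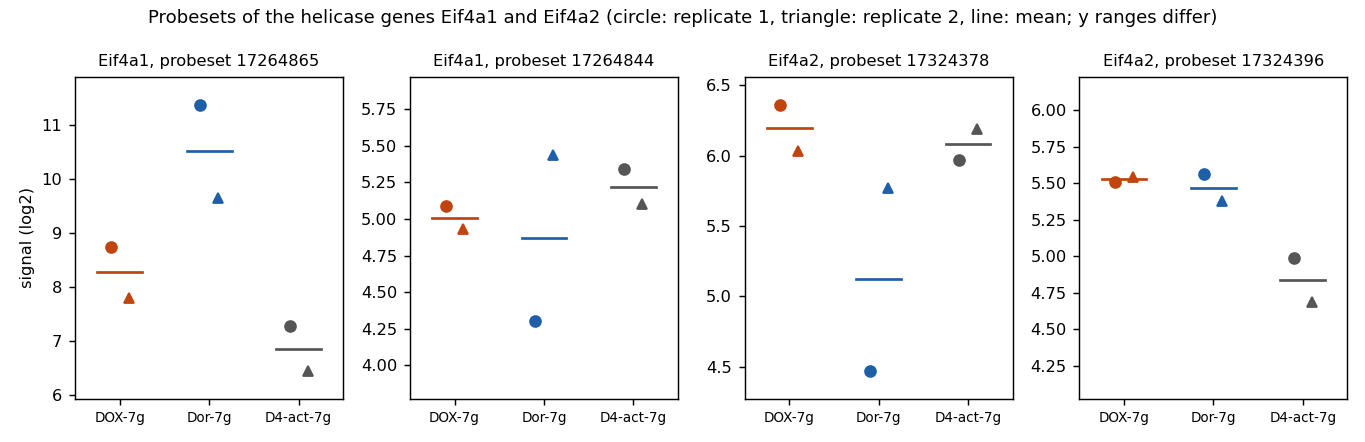
Signal (log2, vertical axes with different ranges) of 2 probesets each of Eif4a1 and Eif4a2 on the 6 arrays by group (horizontal axis), with circles for replicate 1, triangles for replicate 2 and lines for means. Within each gene the 2 probesets put the Dor-7g mean on opposite sides of the D4-act-7g mean.

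Eif4e encodes the cap-binding protein. It read 7.35 and 7.21 in DOX-7g, 5.71 and 7.18 in Dor-7g and 7.57 and 7.30 in D4-act-7g. The low Dor-7g mean rested on replicate 1, since replicate 2 came close to the lower D4-act-7g array, and the 1.99-fold lower mean in Dor-7g versus D4-act-7g (SE of 0.47 on the log2 scale, adjusted p = 0.408, limma) did not pass. Its relatives Eif4e2, which can block caps, and Eif4e3 had changes of opposite sign in Dor-7g versus D4-act-7g, -0.58 and 0.64, and neither passed (adjusted p = 0.429 and 0.348, limma).

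Eif4h, a helper of the helicase, read 5.51 and 6.18 in DOX-7g, 5.67 and 5.77 in Dor-7g and 6.39 and 7.07 in D4-act-7g. All 4 dormant arrays lay below both activated ones, with changes of -0.88 ± 0.32 in DOX-7g and -1.01 ± 0.32 in Dor-7g against D4-act-7g (SE, adjusted p = 0.405 and 0.247, limma). Eif4b, the other helper, had changes of 0.09 and 0.08, and the scaffold gene Eif4g3 of -0.31 and 0.01. Eif4g2, a scaffold for initiation without eIF4E, and Eif4e1b were dim throughout.

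Eif4ebp1 encodes 4E-BP1, the repressor of eIF4E that mTOR turns off. It read 12.55 and 12.52 in DOX-7g, 10.97 and 11.80 in Dor-7g and 12.81 and 12.84 in D4-act-7g. The groups did not overlap, with Dor-7g lowest and replicate 1 the lower of its arrays. The change was -1.44 ± 0.29 in Dor-7g versus D4-act-7g (SE, adjusted p = 0.113, limma) and 1.15 ± 0.29 in DOX-7g versus Dor-7g (SE, adjusted p = 0.223, limma). Of the other repressors, Eif4ebp2 read 6.13 and 6.02 in DOX-7g, 6.41 and 6.03 in Dor-7g and 6.72 and 6.50 in D4-act-7g, lower on all 4 dormant arrays. Eif4enif1, which carries eIF4E into the nucleus, had changes of -0.39 in DOX-7g and -0.12 in Dor-7g against D4-act-7g, neither past the test.

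Eif6 encodes the factor that keeps the large subunit apart until it is ready. It read 9.71 and 9.68 in DOX-7g, 8.55 and 9.13 in Dor-7g and 9.88 and 9.92 in D4-act-7g. Again the 3 groups did not overlap and Dor-7g was lowest, by -1.06 ± 0.24 against D4-act-7g (SE, adjusted p = 0.138, limma). Eif5a, which helps the ribosome through difficult peptide bonds, read 7.93 and 7.52 in DOX-7g, 7.05 and 7.59 in Dor-7g and 7.72 and 8.01 in D4-act-7g. Its Dor-7g arrays lay below both activated arrays, with a change of -0.55 ± 0.27 (SE, adjusted p = 0.422, limma), and Eif5a2 was dim.

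Eef2 encodes the elongation factor that moves the ribosome by 1 codon. It read 9.10 and 8.92 in DOX-7g, 7.77 and 7.73 in Dor-7g and 8.34 and 8.20 in D4-act-7g. The 3 groups did not overlap, and replicates lay within 0.18 of each other. Eef2 rose in DOX-7g versus Dor-7g by 1.26 ± 0.17 (SE, 2.39-fold, adjusted p = 0.0401, limma). Its change of 0.74 ± 0.17 in DOX-7g versus D4-act-7g and that of -0.52 ± 0.17 in Dor-7g versus D4-act-7g did not pass (SE, adjusted p = 0.181 and 0.265, limma). The call held in 5 of 15 alternatives, with changes of 1.04 to 1.39 and adjusted p from 0.0298 to 0.265. It was lost with a further quantile normalization (adjusted p = 0.09, limma), a trended robust fit (0.108), array weights (0.114) or a replicate block (0.0964). Fitting only DOX-7g and Dor-7g also lost it (0.148), and leaving out either D4-act-7g array gives that same fit. Nor did it hold without Dor-7g replicate 1 (change of 1.28) or either DOX-7g array (1.17 without replicate 1 and 1.35 without replicate 2).

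Among factors that deliver aminoacyl-tRNA, Eef1a1 read 13.48 and 13.44 in DOX-7g, 11.86 and 13.32 in Dor-7g and 13.38 on both D4-act-7g arrays. Its lower Dor-7g mean came from replicate 1, with replicate 2 just below D4-act-7g, and the change was -0.79 ± 0.46 (SE, adjusted p = 0.492, limma). The second Eef1a1 probeset ran from 5.59 to 6.21 with overlapping groups. Eef1a2, the form of muscle and nerve, read 6.54 and 6.63 in DOX-7g, 6.34 and 6.19 in Dor-7g and 6.57 and 6.40 in D4-act-7g.

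The exchange complex that reloads eEF1A comprises the products of Eef1b2, Eef1d and Eef1g. Eef1b2 read 13.40 and 13.42 in DOX-7g, 13.45 and 13.40 in Dor-7g and 13.39 and 13.42 in D4-act-7g, level in all groups. Its probeset, like the bright one of Eef1a1, lies close to the top of the arrays, whose highest probesets read 14.08 to 14.18, so differences in both may be compressed. Eef1d read 9.55 and 9.85 in DOX-7g, 9.02 and 8.86 in Dor-7g and 9.30 and 9.32 in D4-act-7g, with DOX-7g above and Dor-7g below D4-act-7g and a change of 0.76 ± 0.19 in DOX-7g versus Dor-7g (SE, adjusted p = 0.214, limma). Eef1g stood at 11.19 and 11.08 in DOX-7g, 11.03 and 10.88 in Dor-7g and 10.86 and 10.94 in D4-act-7g.

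Eef1e1, a scaffold protein of the complex of tRNA synthetases, showed the widest gap between arrays of a group. It read 10.48 and 10.56 in DOX-7g, 7.19 and 10.07 in Dor-7g and 10.81 and 10.49 in D4-act-7g. Both Dor-7g arrays lay below the others, replicate 1 by far, and the change of -2.02 ± 0.86 in Dor-7g versus D4-act-7g (SE, adjusted p = 0.373, limma) did not pass.

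**Figure D4:**
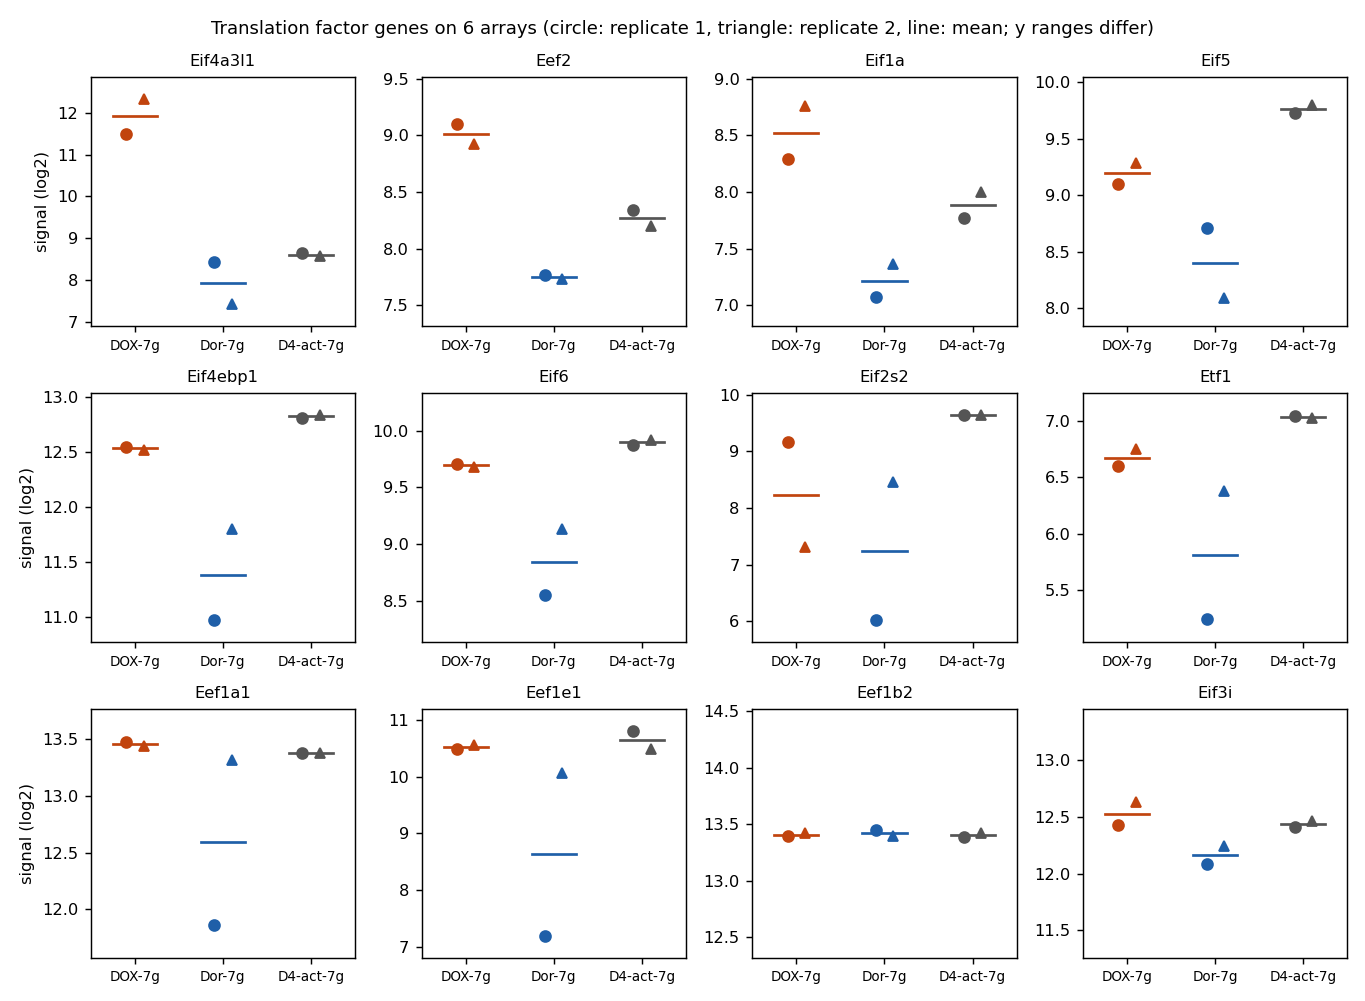
Signal (log2, vertical axes with different ranges) of 12 factor genes on the 6 arrays by group (horizontal axis), with circles for replicate 1, triangles for replicate 2 and lines for means. Eif4a3l1 is at 11.50 and 12.34 in DOX-7g, above its other 4 arrays, and Eef1b2 lies between 13.39 and 13.45 throughout.

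Modifiers of the elongation factors had a median change of 0.00 in Dor-7g and 0.03 in DOX-7g against D4-act-7g. Eef2k, the kinase that inhibits eEF2, read 5.74 and 5.55 in DOX-7g, 5.54 and 5.80 in Dor-7g and 5.62 and 5.36 in D4-act-7g, with overlapping groups. Eef2kmt, which methylates eEF2, read 8.99 and 8.76 in DOX-7g, 7.44 and 8.64 in Dor-7g and 8.38 and 8.60 in D4-act-7g. DOX-7g was above both other groups, but the change of 0.84 ± 0.40 in DOX-7g versus Dor-7g (SE, adjusted p = 0.488, limma) did not pass.

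Eef1akmt1, Eef1akmt2, Eef1akmt3 and Eef1aknmt encode methyltransferases of eEF1A. Eef1akmt2 read 6.70 and 7.21 in DOX-7g, 8.13 and 7.21 in Dor-7g and 7.77 and 7.63 in D4-act-7g, lower in DOX-7g than in D4-act-7g on both arrays, by a change of -0.75 ± 0.35 (SE, adjusted p = 0.535, limma). Eef1akmt1 had 8.32 on Dor-7g replicate 1 and 10.00 to 10.86 on the other 5 arrays. Eef1akmt3 and Eef1aknmt lay near the array medians, with changes of at most 0.33 in size in any comparison.

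Both release factor genes stood lower in Dor-7g than in D4-act-7g, though neither passed the test. Etf1 encodes eRF1, which reads the stop codon, and read 6.60 and 6.75 in DOX-7g, 5.25 and 6.38 in Dor-7g and 7.04 and 7.02 in D4-act-7g. Gspt1 encodes its GTPase partner eRF3a and read 7.04 and 7.23 in DOX-7g, 6.90 and 6.98 in Dor-7g and 8.30 and 7.60 in D4-act-7g. For both, all 4 dormant arrays lay below both activated arrays and DOX-7g lay above Dor-7g. Their changes in Dor-7g versus D4-act-7g were -1.21 ± 0.37 for Etf1 and -1.01 ± 0.27 for Gspt1 (SE, adjusted p = 0.23 and 0.184, limma), and in DOX-7g versus D4-act-7g -0.35 and -0.82.

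The 2 arrays of Dor-7g differed more than those of the other groups. Replicate 1 lay over 1 log2 unit below replicate 2 for 8 of 58 factors (13.8%, against 8.10% of all genes): Eef1e1, Eef1akmt1, Eif2s2, Eif4e, Eef1a1, Eif4a2, Eef2kmt and Etf1. It lay over 1 above for Eif4a1 and Eif4a3l1. In DOX-7g 1 factor, Eif2s2, passed that gap, and in D4-act-7g none did. By role, 0 of 12 eIF3 subunits and 2 of the 7 genes listed as elongation factors, Eef1a1 and Eef1e1, were among the 8. The cause of the gap was not tested. Without replicate 2, Dor-7g rests on replicate 1, and limma then called 12 factors against D4-act-7g (20.7%, against 8.36% of all genes in that fit): Eif4a1 higher, and Eef1a1, Eef1akmt1, Eef1e1, Eif3m, Eif4a2, Eif4e, Eif4e2, Eif4ebp1, Eif5, Eif6 and Etf1 lower. Without replicate 1 it called Eif5 (1.72% of the factors, against 1.89% of all genes).

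**Figure D5:**
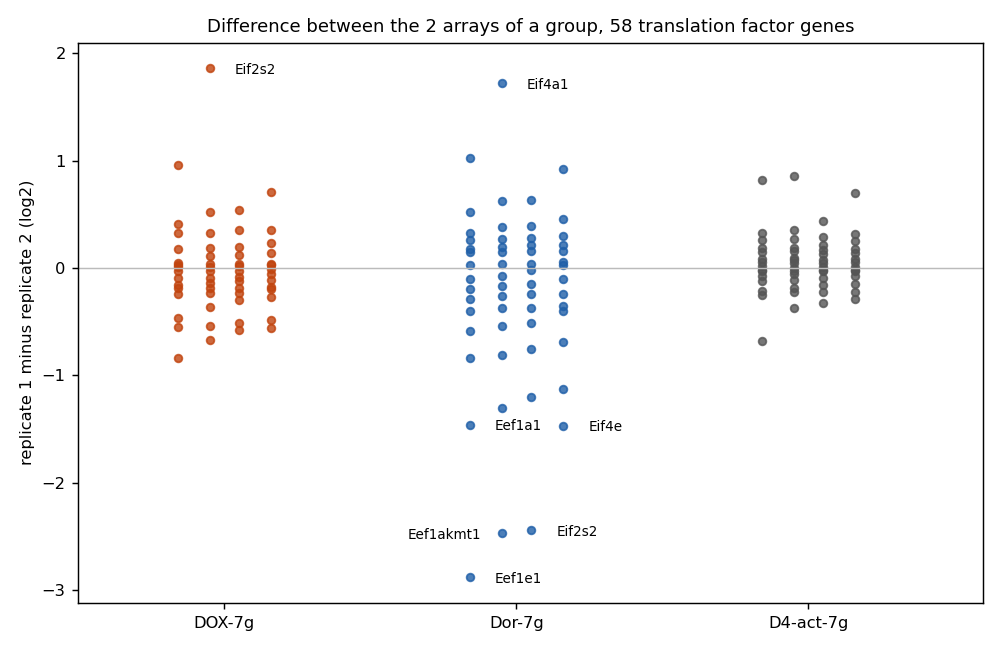
Replicate 1 minus replicate 2 (log2, vertical axis) for each of 58 factors (points, spread sideways for clarity) in each group (horizontal axis). In Dor-7g the points reach -2.88 for Eef1e1 and 1.72 for Eif4a1, and in D4-act-7g they lie between -0.68 and 0.86.

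Genes that work with the factors were listed by role, not by their values: poly(A)-binding proteins, recycling factors, regulators of the cap complex, enzymes of eIF5A and subunits of the eIF2alpha phosphatase. Of 26 listed, 18 passed the filter, and limma called 0 in any comparison, where 0.956% to 1.16% of all genes were called. At an unadjusted p under 0.05 there were 4 of 18 in Dor-7g versus D4-act-7g (22.2%, against 14.3% of all genes), 2 in DOX-7g versus Dor-7g (11.1%, against 11.6%) and 0 in DOX-7g versus D4-act-7g (against 11.0%). Their medians were -0.09 in Dor-7g versus D4-act-7g, -0.12 in DOX-7g versus D4-act-7g and 0.01 in DOX-7g versus Dor-7g. The smallest p-values in Dor-7g versus D4-act-7g belonged to Pelo, which rescues stalled ribosomes, and Abce1, which splits ribosomes after release. Pelo read 9.77 and 9.87 in DOX-7g, 9.42 and 9.45 in Dor-7g and 10.14 and 10.21 in D4-act-7g. Abce1 read 4.81 and 4.68 in DOX-7g, 3.96 and 4.43 in Dor-7g and 5.12 and 5.60 in D4-act-7g. Its Dor-7g values lay below the medians of those arrays, 4.87 and 4.67, so it passed the filter through the other groups and its change is hard to size. For both genes, DOX-7g lay between the other groups without overlap. The changes of -0.74 ± 0.16 for Pelo and -1.16 ± 0.26 for Abce1 in Dor-7g versus D4-act-7g did not pass (SE, adjusted p = 0.138 each, limma).

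The same 2 partner genes had the smallest p-values in DOX-7g versus D4-act-7g, at -0.36 for Pelo and -0.61 for Abce1. In DOX-7g versus Dor-7g they were Ppp1r15a, the stress-induced subunit of the phosphatase that reactivates eIF2, and Mcts1, a re-initiation factor. Ppp1r15a read 6.67 and 6.63 in DOX-7g, 7.09 and 7.63 in Dor-7g and 6.60 and 6.69 in D4-act-7g, higher in Dor-7g than in both other groups, with a change of -0.71 ± 0.23 in DOX-7g versus Dor-7g (SE, adjusted p = 0.333, limma). Mcts1 had a change of -0.47 there and was also highest in Dor-7g.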

How the data were processed

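Per the submitters' processing notes, the deposited log2 values were made with Partek 6.6 and RMA, which background-corrects, normalizes and summarizes probes; roles and settings are not given in the sources used here. The deposited table has 41345 probesets: 23521 have 1 gene symbol, 1814 several and 16010 are not named here. Entrez identifiers gave current symbols through RefSeq's genes of GRCm38.p6, with 193 probesets not matched. Another 12 probesets that list a factor beside other genes were not used. The brightest probeset stood for a gene.

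One limma fit (version 3.58.1, R 4.3.3) took in all 6 arrays, with a mean for each group and eBayes, giving 3 residual and 2.81 prior degrees of freedom, and the fit was tested on simulated data. The number of arrays limits the precision. The members and all lists were chosen with earlier results of these data known. Genes were named by a rule: those past the threshold, in each role and comparison the 2 largest changes without overlap, genes with disagreeing probesets, a core list of 29 genes of which 25 were measured, and the 2 partner genes of smallest p. That named 44 factors, and the others were named after their values were seen. Whether equal replicate numbers pair the samples is not stated. Deviations from the group means correlated at -0.137 for DOX-7g and Dor-7g, -0.0114 for DOX-7g and D4-act-7g and -0.0241 for Dor-7g and D4-act-7g. None of these is positive, but they cannot exclude pairing. Alternatives covered normalization, filters, the probeset rule, the variance model, array weights, a replicate block, fits of the compared groups only and leaving out each array. Leaving out an array of the group not compared repeats the fit of the compared groups only. Counts of genes without overlap were recomputed under alternatives chosen after seeing the data.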

Additional observations from a re-analysis of the deposited data

Results flagged for a closer look

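For 7 of 58 factors (12.1%), DOX-7g and Dor-7g lay on opposite sides of D4-act-7g, DOX-7g above and Dor-7g below with no overlap of arrays, against 624 of 14020 genes in either arrangement (4.45%). Both changes share the D4-act-7g arrays, and the difference between them equals the change of DOX-7g versus Dor-7g. It passed the test in limma for Eif4a3l1 (4.00) and Eef2 (1.26). It did not pass for Eif1a (1.31), Eef1a1 (0.87), Eif3m (0.80), Eef1d (0.76) and Eif3f (0.37). Eef1a1 reads close to the top of the arrays, where differences may be compressed. With a further quantile normalization the change of Eif3f in Dor-7g versus D4-act-7g was -0.00.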

How the results depend on the processing

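No change past the threshold turned its direction under any alternative, nor did the median of all factors in any comparison. Of 126 changes of named genes 29 turned sign under at least 1 alternative, none of them past the threshold. Of 36 role medians, which were not tested, 9 turned sign. Where the move was over 0.5, they were as follows, with the main value second. In Dor-7g versus D4-act-7g, Eif4a2 was at 0.63 (-0.96) and the median of the eIF4 group at 0.01 (-0.58) with the strict filter, which takes another Eif4a2 probeset, and Eef2kmt was at 0.15 (-0.45) without Dor-7g replicate 1. In DOX-7g versus D4-act-7g the eIF2 median was 0.02 (-0.62) without DOX-7g replicate 2, and in DOX-7g versus Dor-7g it was -0.06 (0.59) without DOX-7g replicate 1, and Eif2s2 was at -0.21 (1.00) without Dor-7g replicate 1. With arrays centred, Dor-7g versus D4-act-7g gave a median factor change of -0.50 and 1 factor called (Eif5, 1.72%, against 1.11% of all genes). DOX-7g versus Dor-7g then gave a median of 0.39. With a further quantile normalization the medians were -0.31 and 0.22. Of the factors, 0 were called in DOX-7g versus D4-act-7g (against 0.735% of all genes) and 1 in DOX-7g versus Dor-7g (1.72%, against 1.08%). In Dor-7g versus D4-act-7g 6 factors lay higher without overlap (10.3%, against 22.3% of all genes). Without the filter the medians were -0.32 in Dor-7g versus D4-act-7g and 0.18 in DOX-7g versus Dor-7g, and with the mean of probesets the median in Dor-7g versus D4-act-7g was -0.35. The strict filter left 68 genes called in DOX-7g versus D4-act-7g (134 in the main fit) and 81 in DOX-7g versus Dor-7g (163). Array weights gave 79 genes in Dor-7g versus D4-act-7g (138), 461 in DOX-7g versus D4-act-7g and 104 in DOX-7g versus Dor-7g, with 1 factor called in the last, as with a trended robust fit (1). Whether the replicate numbers pair the samples is not stated. The replicate block gave 82 genes (0.585%) and 1 factor (Eif4a1, 1.72%) in Dor-7g versus D4-act-7g. It gave 0 factors in DOX-7g versus D4-act-7g (against 0.642% of all genes) and 1 in DOX-7g versus Dor-7g (1.72%, against 0.827%). Fitting only the groups compared gave 86 genes in Dor-7g versus D4-act-7g and 296 in DOX-7g versus D4-act-7g. In DOX-7g versus Dor-7g it gave 86 genes (0.613%) with 0 factors. The cause of these moves was not tested.

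Leaving out each array in turn gave 11 to 1172 genes, 0 to 12 factors and medians of -0.41 to -0.30 in Dor-7g versus D4-act-7g, where 6 to 12 factors lay higher (34.9% to 51.9% of all genes) and 37 to 44 lower (28.9% to 42.0%) without overlap (2 and 35 in the main fit). In DOX-7g versus D4-act-7g it gave 43 to 296 genes, 0 to 1 factors, medians of -0.17 to -0.05, and 15 to 19 factors higher without overlap (11), against 29.0% to 34.5% of all genes. In DOX-7g versus Dor-7g it gave 67 to 880 genes, 0 to 14 factors, medians of 0.16 to 0.28, and 13 to 16 factors lower without overlap (8), against 37.5% to 55.5% of all genes. The highest counts of called genes and factors in both comparisons with Dor-7g came without Dor-7g replicate 2, which leaves the array that stands apart alone in its group, its spread assumed to be like that of the other groups; without Dor-7g replicate 1, Dor-7g versus D4-act-7g had 1 factor called (Eif5) and DOX-7g versus Dor-7g 1 (Eif4a3l1). Having 1 array in place of 2 also makes non-overlap easier by construction. Signals near or below the array medians, as for Eif2ak3, Eif3a, Eif3l and Abce1, limit what can be seen of those genes.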
